A study of Mus musculus with 12 samples.

Results

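Oligodendrocytes wrap axons in myelin, and 38 genes of this lineage, from progenitor receptors to the proteins and lipids of the finished sheath, are described here by the m6A peaks of their RNA in the hippocampus of WT and *Tyrobp-/-* mice. The members are a list of gene names, and a peak was taken as a member's peak where the deposited peak lists give it that gene name. Of the 38 members, 32 had a peak in at least 1 genotype, among 17777 genes that the deposited lists name. The WT list held 66 peaks of members among 33622 peaks, and the *Tyrobp-/-* list held 69 among 34935.

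All mice were males, labelled as strain C57BL/6 and 6 months old, the knockout founders had been bred with mice of that strain, and the WT mice were littermates of the knockouts. The *Tyrobp-/-* mice carried a small TALEN deletion in an exon of *Tyrobp*, which encodes a signaling adaptor of microglia, in every cell of the animal. Methylated RNA immunoprecipitation sequencing (MeRIP-seq) was done on 3 samples of each genotype, each sample being the RNA of 3 pooled hippocampi, and each sample gave a library of RNA bound by an antibody against m6A (IP) and a library of unselected RNA (input). The comparison asked which transcripts differ in m6A when *Tyrobp* is lost. The 12 libraries held between 61189368 and 73554506 valid reads.

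Myelin is made of many layers of oligodendrocyte membrane that are held together by small proteins and are rich in cholesterol and galactolipids. Progenitors leave the cell cycle under the control of transcription factors of the OLIG, SOX and NKX families, and then switch on the genes of the sheath. m6A is a methyl group on adenosine in mRNA that is written by a METTL3 and METTL14 complex, mostly in the last exons and 3′ UTRs of transcripts, and it affects how long an mRNA lasts and how it is spliced and translated. Loss of METTL14 in oligodendrocytes is known to impair myelination in mice.

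A peak's level is its fold enrichment, the ratio of IP over input reads after exomePeak scales the libraries. After this scaling a ratio between genotypes is relative, and a change in m6A over all RNA cannot be read from it. Peaks were called on the 3 samples of a genotype together, so each peak has a single value for each genotype, no replicate error can be given and no difference between genotypes was tested. The size of a difference is given as the log2 of the *Tyrobp-/-* over the WT fold enrichment at matched peaks, which are peaks of the same gene that overlap best in both lists, and 1.5 fold either way was taken as the mark for counting. In bulk tissue, fewer oligodendrocytes and less RNA per oligodendrocyte cannot be told apart, and the pooled lists hold no reads per gene.

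*Tyrobp* itself had 0 peaks in either list, so the lists do not check the genotype labels. Markers of the main cell types of the hippocampus carried peaks. Peaks were found in both genotypes for 9 of 10 astrocyte markers, 9 of 10 microglia markers (all but *Trem2*) and 9 of 10 hippocampal neuron markers (all but *Gad1*). Of 10 choroid plexus and 10 hypothalamus markers, 7 each had a WT peak and 5 each had peaks in both genotypes, such as *Otx2* at a fold enrichment of 7.41 in WT and 8.62 in *Tyrobp-/-* mice and *Nkx2-1* at 16.6 and 11.4. The 3 without a peak were *Ttr*, *Folr1* and *Slc4a5* among the choroid plexus and *Pmch*, *Hcrt* and *Avp* among the hypothalamus markers. The part of these tissues in the members' values was not tested. At matched peaks the median log2 ratio was 0.10 for the astrocyte list (15 peaks), -0.04 for microglia (20 peaks), 0.16 for neurons (16 peaks), 0.11 for choroid plexus (6 peaks) and -0.32 for hypothalamus (6 peaks). A peak shows methylated RNA and not the abundance of a cell type.

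The adenosines that METTL3 methylates mostly lie in a 5-base context. Its first base is A, G or T, its second A or G, then come A and C, and its last is A, C or T, which makes 18 sequences. The RefSeq windows of GRCm38 were at hand for 28 of the 38 members and reach 50 bases into the transcript. In 11 members these 50 bases overlapped a peak in at least 1 genotype, and in 6 of them a sequence of that kind lay within the peak. They are printed 5′ to 3′ on the strand of the transcript, with the 5-base context in capitals, to show the letters that the start-of-transcript peaks cover.

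Mobp: ctatccacagGAACCtttcacaaca
Olig2, first stretch: ccagcgGAACCccgaaaggtg
Olig2, second stretch: tgcttattacAGACCgagccaacac
Lpar1: ctttgaagtcAGACCagtctggttc
Ermn: tgagccctgaAAACCtttcggagga
Gal3st1: ttcttgtctcTGACTgcagaggcag
Qk: GAACTccgccgccaa

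The *Mobp* stretch (chr9:120149759-120149783, forward strand) lay within a peak in both genotypes. The *Olig2* stretches (chr16:91225550-91225570 and chr16:91225575-91225599, forward strand), the *Lpar1* stretch (chr4:58499374-58499398, reverse strand), the *Ermn* stretch (chr2:58052836-58052860, reverse strand) and the *Qk* stretch (chr17:10319347-10319361, reverse strand) lay within a *Tyrobp-/-* peak only. Of the *Gal3st1* stretch (chr11:3989938-3989962, forward strand), the 5 capital letters lay within a WT peak only, and that peak ended at 3989953, inside the stretch. Such a 5-base sequence is common, since 54.4% of all 32851 RefSeq windows hold at least 1 in the same 50 bases of the transcript strand and 55.2% on the opposite strand. The letters are a description, and no methylated base was located.

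Members carried m6A peaks about as often as other genes with a peak, at a lower FDR and a slightly lower enrichment. The members with a peak had 2.20 peaks per gene in the WT list and 2.30 in the *Tyrobp-/-* list, where all genes with a peak had 2.13 and 2.16. Their median fold enrichment was 4.61 and 5.35, below the 5.54 and 5.72 of all peaks. The peak-calling FDR was below 1e-05 for 84.8% of the members' WT peaks and 84.1% of their *Tyrobp-/-* peaks, against 64.4% and 63.3% of all peaks.

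**Figure D1:**
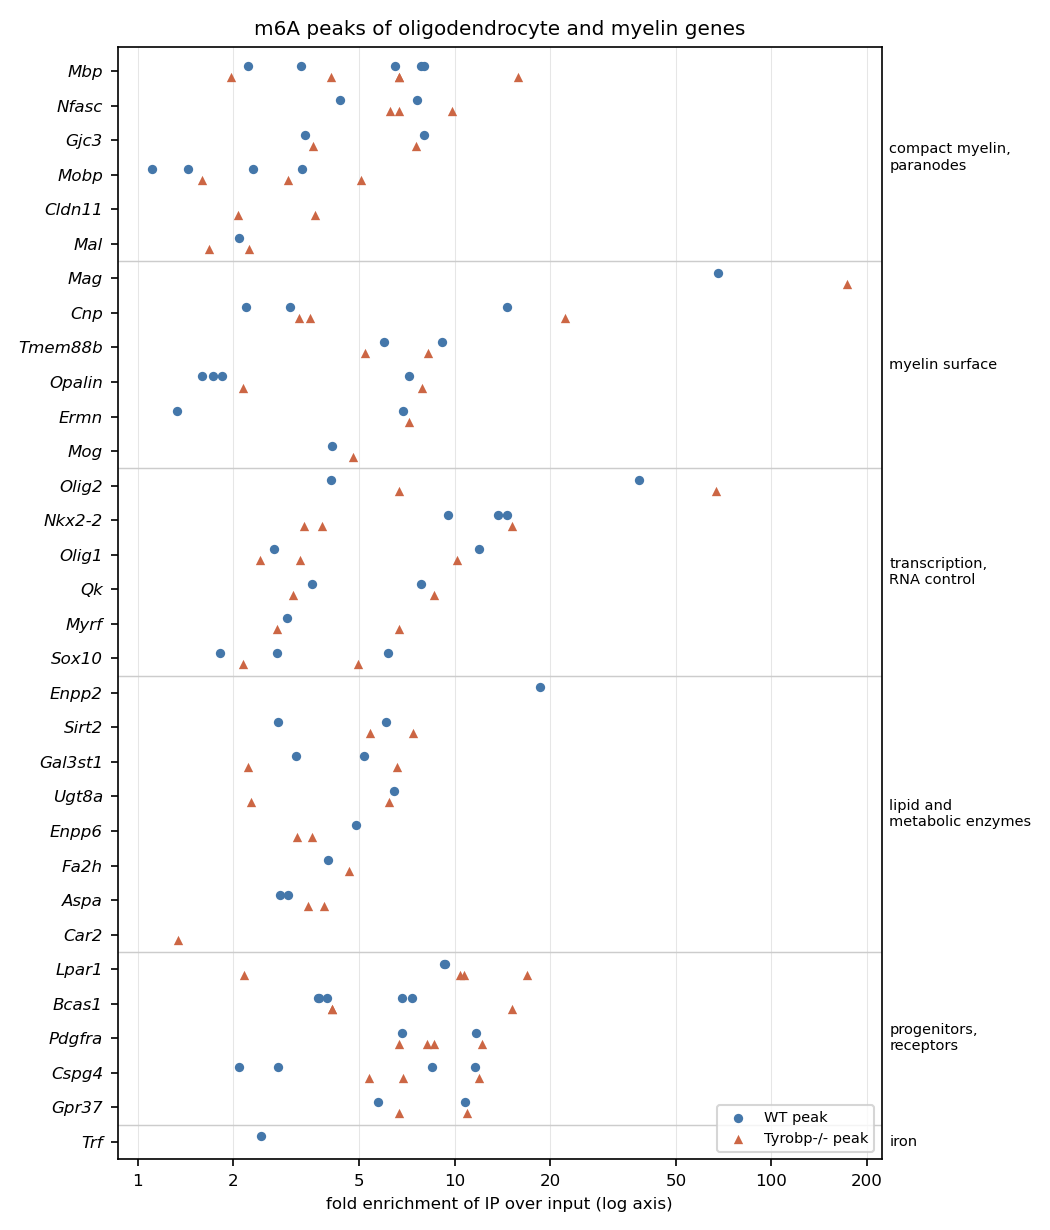
Fold enrichment of IP over input (log axis) for each m6A peak of the 32 members with a peak, by gene and role group, with WT peaks as circles and *Tyrobp-/-* peaks as triangles. Most peaks lie between 2 and 20 in both genotypes, and *Mag* (67.9 in WT, 173 in *Tyrobp-/-*) and *Olig2* (38.1 and 66.7) stand above the others.

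The same members were methylated in both genotypes, with few exceptions. Peaks were found in 30 members in each genotype and in 28 members in both, which is 87.5% of the 32 with any peak, against 79.9% of all 17744 genes with any peak. Of the 66 WT peaks of members, 59 overlapped a *Tyrobp-/-* peak of the same gene (89.4%, exact 95% binomial interval 79.4% to 95.6%, which covers counting error only). The other 7 had no partner, where 22.0% of all WT peaks had none. Of the 69 *Tyrobp-/-* peaks of members, 56 overlapped a WT peak (81.2%, 69.9% to 89.6%) and 13 did not, where 24.2% of all *Tyrobp-/-* peaks had no partner.

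The members without any peak were *Nkx6-2*, a transcription factor of maturing oligodendrocytes, *Gpr17*, a receptor of cells about to differentiate, the myelin membrane proteins *Tspan2* and *Pllp*, *Gsn*, which severs actin, and *Qdpr*, an enzyme that regenerates tetrahydrobiopterin. *Enpp2*, which encodes autotaxin, had a peak in WT mice only, at a fold enrichment of 18.6 (chromosome 15, 54952100 to 54952459, GRCm38). That peak was annotated to exon 1 of 2 of another gene model, ENSMUSG00000097286, at the same place. Its fold enrichment and its peak-calling p-value of 2.5e-05 recur together in 46 WT peaks in all. *Trf*, which encodes the iron carrier transferrin, had a WT peak in its 3′ UTR at 2.44 and none in *Tyrobp-/-* mice. *Cldn11*, the tight junction protein between myelin layers, had peaks in *Tyrobp-/-* mice only, at 3.62 in its 5′ UTR and 2.07 in its 3′ UTR. *Car2*, a carbonic anhydrase, had a single *Tyrobp-/-* peak of 60 bases at 1.34. Apart from *Enpp2*, each of these was weaker than the median of all peaks in its genotype.

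At matched peaks, the members' ratios leaned upward in *Tyrobp-/-* mice by a small amount. The 53 matched peaks of 28 members had a median log2 ratio of 0.16, a fold of 1.11, with quartiles of -0.10 and 0.37, and 37 (69.8%) had a higher fold enrichment in *Tyrobp-/-* mice. Over all 23142 matched peaks the median log2 ratio was 0.05, and 53.6% were higher in *Tyrobp-/-* mice. Of the members' 53, 11 (20.8%) were at least 1.5 fold higher, where 16.2% of all matched peaks were, and 4 (7.55%) were at least 1.5 fold lower, where 13.4% of all were. The member just inside the mark on the upper side had a log2 ratio of 0.61 and the one just outside 0.53, and on the lower side these were -0.62 and -0.50. Peaks of the same gene share their RNA, so the 53 are not independent.

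**Figure D2:**
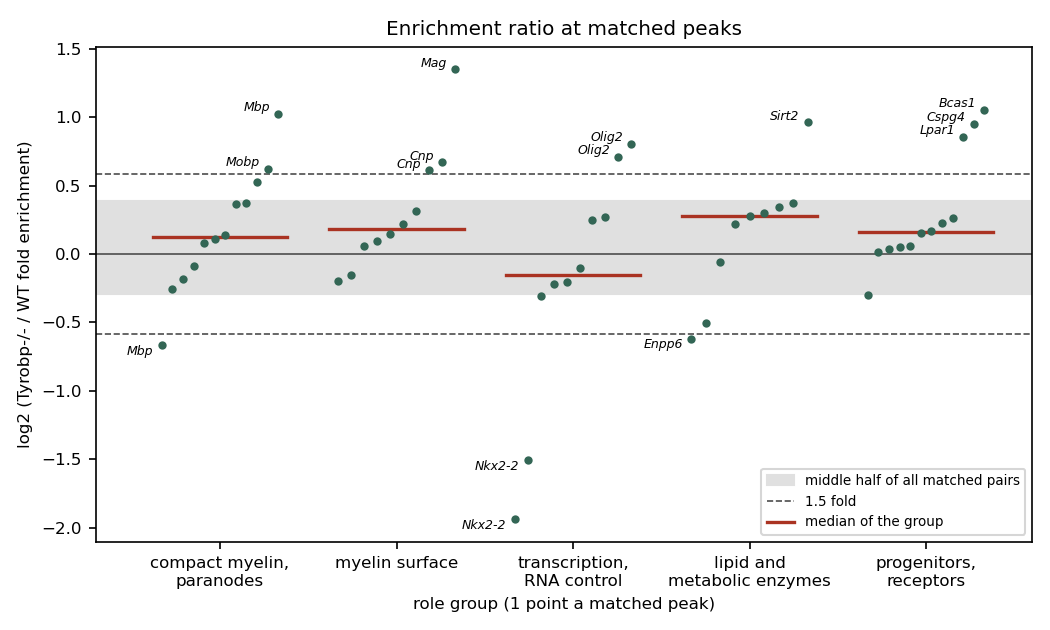
Log2 ratio of *Tyrobp-/-* over WT fold enrichment at the 53 matched peaks of members, grouped by role, with each group's median as a red line, 1.5 fold as dashed lines and the range between the quartiles of all 23142 matched pairs in grey. Named points are the 11 peaks at least 1.5 fold higher and the 4 at least 1.5 fold lower, and the transcription group alone has a median below 0 (-0.15).

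Among the proteins of the myelin surface, all 6 members had peaks in both genotypes. Of 10 matched peaks, 8 (80%) were higher in *Tyrobp-/-* mice, where 53.6% of all matched peaks were. Of these, 3 (30% of the 10) were at least 1.5 fold higher, where 16.2% of all were. *Mag* encodes the adhesion glycoprotein on the myelin membrane that faces the axon. It had a single peak of 181 bases in exon 6 of 13 (chromosome 7, 30908797 to 30908977) with the same borders in both lists. Its fold enrichment was 67.9 in WT and 173 in *Tyrobp-/-* mice, a log2 ratio of 1.35, which was the highest of the members. Only 55 WT peaks and 12 *Tyrobp-/-* peaks of any gene were at or above these values, with log10 FDR of -43.1 and -111. *Mag* lies 0.482 Mb from *Tyrobp* on the same chromosome, and the part of that neighbourhood in its value was not tested.

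*Cnp*, which encodes the cyclic nucleotide phosphodiesterase of non-compact myelin, had 3 peaks at matching places in both genotypes. The 3′ UTR peak (chromosome 11, from 100582818) was the strongest, at 14.6 in WT and 22.3 in *Tyrobp-/-* mice, a log2 ratio of 0.61. The peak in exon 1 went from 2.20 to 3.50 (0.67) and the one in exon 2 from 3.02 to 3.22 (0.09). All 3 *Cnp* peaks were thus higher in *Tyrobp-/-* mice, and 2 of them passed the mark. The 3′ UTR peak of *Mog*, the glycoprotein on the outermost myelin surface, covered the same 748 bases in both lists, at 4.09 and 4.77. The strongest *Opalin* peak, in the 3′ UTR of this oligodendrocyte membrane protein, was at 7.16 and 7.91. *Ermn*, a cytoskeletal protein of oligodendrocytes, was at 6.88 and 7.16, with the *Tyrobp-/-* peak reaching from the 3′ UTR to the transcript start shown above. *Tmem88b* was the exception of the group, with its 5′ UTR peak at 9.15 in WT and 8.25 in *Tyrobp-/-* mice and its 3′ UTR peak at 5.99 and 5.23.

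Of the 8 proteins of compact myelin and the paranodes, 5 had peaks in both genotypes. Of their 12 matched peaks, 8 (66.7%) were higher in *Tyrobp-/-* mice, where 53.6% of all matched peaks were. At least 1.5 fold, 2 (16.7%) were higher and 1 (8.33%) lower, where 16.2% and 13.4% of all were. *Mbp*, the protein that binds the inner membrane faces of compact myelin together, had 5 peaks in each genotype, together with *Bcas1* the most of any member in WT. Its matched peaks differed in direction. A peak annotated as 3′ UTR, at 82513915 to 82514154 on chromosome 18 in WT, was at 7.81 in WT and 15.9 in *Tyrobp-/-* mice, a log2 ratio of 1.03. The peak at 82554939 was at 6.46 and 4.08, a log2 ratio of -0.66. The 2 other matched *Mbp* peaks were at 7.98 and 6.67 and at 2.23 and 1.97. *Mobp*, a further structural protein of compact myelin, had its strongest peak at the 5′ end, spread over 4 exon blocks and covering the sequence shown above. It was at 3.29 in WT and 5.07 in *Tyrobp-/-* mice, a log2 ratio of 0.62, and the other 2 matched *Mobp* peaks were also higher (2.31 and 2.97, 1.44 and 1.59).

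*Nfasc*, the neurofascin gene, whose glial form anchors the paranodal myelin loops, had 2 matched 3′ UTR peaks, at 7.58 and 9.83 and at 4.34 and 6.26. The second, with a log2 ratio of 0.53, was the highest that stayed inside 1.5 fold. *Gjc3*, a connexin of oligodendrocytes, differed little, at 8.03 and 7.54 in the 3′ UTR and 3.38 and 3.57 in an inner exon. *Mal*, a raft protein of myelin, was at 2.08 and 2.25, among the weakest of the members.

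The transcription and RNA control genes did not share a direction. Of 10 matched peaks, 4 (40%) were higher in *Tyrobp-/-* mice, where 53.6% of all matched peaks were. At least 1.5 fold, 2 (20%) were higher and 2 (20%) lower, where 16.2% and 13.4% of all were. *Olig2*, which specifies the lineage, carried the second strongest peak of the members in both genotypes. It covered 805 bases of the 3′ UTR in WT (chromosome 16, 91227189 to 91227993), at 38.1 in WT and 66.7 in *Tyrobp-/-* mice, a log2 ratio of 0.81. In WT 204 peaks of any gene and in *Tyrobp-/-* mice 59 were at or above these values. Its 5′ peak was also higher, at 4.08 and 6.67 (0.71), and in *Tyrobp-/-* mice it began upstream of the RefSeq transcript start and covered the stretches shown above. *Olig1*, its neighbour and relative, was the reverse at its 5′ peak, at 11.9 in WT and 10.2 in *Tyrobp-/-* mice (-0.22), and was higher at its 3′ UTR peak, at 2.69 and 3.25.

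*Nkx2-2*, which acts as progenitors begin to differentiate, had the lowest ratios of the members. Its 3′ UTR peak was at 14.6 in WT and 3.81 in *Tyrobp-/-* mice (log2 ratio -1.94) and its 5′ peak at 9.52 and 3.35 (-1.51). The borders of these peaks differed, since the WT 3′ peak covered 421 exonic bases and the *Tyrobp-/-* one 121, and the WT 5′ peak was annotated over 102265 bases of genome, most of them upstream of the gene. With a reciprocal overlap of 50% neither pair was matched. A further *Nkx2-2* peak was at 13.7 in WT and another at 15.2 in *Tyrobp-/-* mice, at different places, with p-values of 0.00058 and 0.00019. The same pair of values recurs in 136 WT and 109 *Tyrobp-/-* peaks in all. *Sox10*, a factor needed through the whole lineage, was at 6.16 and 4.97 at its strongest peak (-0.31). *Myrf*, which drives the myelin genes, was at 2.95 and 2.75 in the 3′ UTR. *Qk*, an RNA-binding protein that acts on myelin mRNAs, was at 3.54 and 3.08 there.

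Among lipid and metabolic enzymes, 6 of 9 members had peaks in both genotypes. Of 9 matched peaks, 6 (66.7%) were higher in *Tyrobp-/-* mice, where 53.6% of all matched peaks were. At least 1.5 fold, 1 (11.1%) was higher and 1 (11.1%) lower, where 16.2% and 13.4% of all were. *Ugt8a*, the enzyme that makes galactosylceramide, had a 5′ UTR peak of 956 bases in WT, at 6.44 in WT and 6.19 in *Tyrobp-/-* mice. *Gal3st1*, which sulfates galactosylceramide, went 2 ways, with its coding exon at 5.17 and 6.57 (0.35) and its 5′ UTR at 3.15 and 2.22 (-0.50). *Fa2h*, which hydroxylates myelin lipids, was at 3.99 and 4.65 in the 3′ UTR. *Aspa*, which releases acetate for lipid synthesis, was higher at both ends, at 2.98 and 3.86 and at 2.80 and 3.44. *Enpp6*, a choline phosphodiesterase of newly formed oligodendrocytes, had weak 3′ UTR peaks with a matched pair at 4.88 and 3.18 (-0.62), and its WT peak had a p-value of 0.028. *Sirt2*, a deacetylase abundant in myelin, was at 6.09 and 7.39 in the 3′ UTR and at 2.77 and 5.40 in an inner region annotated as exon 1 of 1 of a further transcript, a log2 ratio of 0.96. *Sirt2* lies 1.63 Mb from *Tyrobp*. Without *Mag* and *Sirt2* the members' median log2 ratio was 0.14, against 0.05 over all matched peaks. Of the 50 matched peaks left, 9 (18%) were at least 1.5 fold higher and 4 (8%) lower, where 16.2% and 13.4% of all were.

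Receptors and markers of progenitors and differentiating cells had the highest share of upward ratios among the role groups. Of their 12 matched peaks, 11 (91.7%) were higher in *Tyrobp-/-* mice, where 53.6% of all matched peaks were. Their median log2 ratio was 0.16, and 3 (25%) were at least 1.5 fold higher, where 16.2% of all were. The 11 include 3 peaks of *Bcas1*. They also include the *Cspg4* 3′ UTR and *Gpr37* 5′ UTR peaks, whose log2 ratios of 0.04 and 0.01 were below the 0.05 over all. *Lpar1*, a receptor for lysophosphatidic acid, the product of autotaxin, had a peak at the end of its 3′ UTR at 9.33 in WT and 16.9 in *Tyrobp-/-* mice (chromosome 4, from 58435255, log2 ratio 0.86). Its 5′ peak was at 9.26 and 10.4, and a further 3′ UTR peak was called in *Tyrobp-/-* mice only, at 10.7. *Cspg4*, which encodes the NG2 proteoglycan of progenitors, had the most exonic bases in peaks of any member, 4860 in WT and 5189 in *Tyrobp-/-* mice. Its 3′ UTR peak was at 11.6 and 11.9, and a peak in exon 3 of 5 was at 2.77 and 5.35 (0.95), with the WT peak covering 330 bases and the *Tyrobp-/-* peak 1020. A second peak in the same exon was lower, at 8.46 and 6.88. *Pdgfra*, the receptor for the progenitor mitogen PDGF, was almost level in its 3′ UTR, at 11.7 and 12.2, and *Gpr37*, a receptor of maturing oligodendrocytes, had a 5′ UTR peak with the same 1705 bases in both lists, at 10.8 and 10.9. *Bcas1*, a marker of early myelinating cells, was at 7.32 and 15.2 at 1 peak (1.05), where the *Tyrobp-/-* value has a p-value of 0.00019 and is one that 109 peaks share, and at 3.69 and 4.11 and at 3.96 and 4.10 at the other matched peaks. All *Bcas1* peaks were annotated to exons of another gene model inside it, ENSMUSG00000086970, and the strand used for counting is not given in the sources used here, so reads of *Bcas1* and of that model cannot be told apart.

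The count by the strongest peak of each gene depended on recurring low-count values. Of the 28 members with peaks in both genotypes, 22 had a higher strongest peak in *Tyrobp-/-* mice and 6 a lower one (*Sox10*, *Olig1*, *Ugt8a*, *Enpp6*, *Tmem88b* and *Gjc3*), and in 24 the strongest peak was of the same annotation class in both lists. The 22 are 78.6% of the 28, where 53.3% of 14183 genes were higher. The median log2 ratio by strongest peak was 0.18, against 0.05 over those genes. In *Nkx2-2*, *Myrf*, *Qk* and *Bcas1* the strongest *Tyrobp-/-* peak has a fold enrichment and p-value that many peaks of the list share. Without such values 18 of 28 members (64.3%) were higher and 10 lower, these 4 among the lower ones, where 54.3% of 13045 genes were higher. The median log2 ratio was then 0.087, against 0.055 over those 13045 genes.

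The members' peaks lay in the parts of transcripts where peaks of other genes lie. In WT mice 48.5% of the 66 peaks were annotated to 3′ UTRs (exact 95% interval 35.99% to 61.1%), 24.2% to 5′ UTRs (14.5% to 36.4%), 10.6% to first exons and 16.7% to other exons. In *Tyrobp-/-* mice these shares were 49.3% (37.0% to 61.6%), 24.6% (15.1% to 36.5%), 8.70% and 17.4% of 69 peaks. Over all peaks, 3′ UTRs held 47.2% in WT and 49.3% in *Tyrobp-/-* mice and 5′ UTRs 18.9% and 17.3%, within the members' intervals. The last 20% of the gene's span held the midpoint of 42.4% of the members' WT peaks and 44.9% of their *Tyrobp-/-* peaks, against 49.8% and 51.7% of all peaks. The members' 29 matched peaks in 3′ UTRs had a median log2 ratio of 0.22 and the 13 in 5′ UTRs -0.06, where all matched peaks had 0.08 and -0.00078. For the 3 in first exons it was 0.67 and for the 8 in other exons 0.22, where all matched peaks had -0.03 and -0.01.

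**Figure D3:**
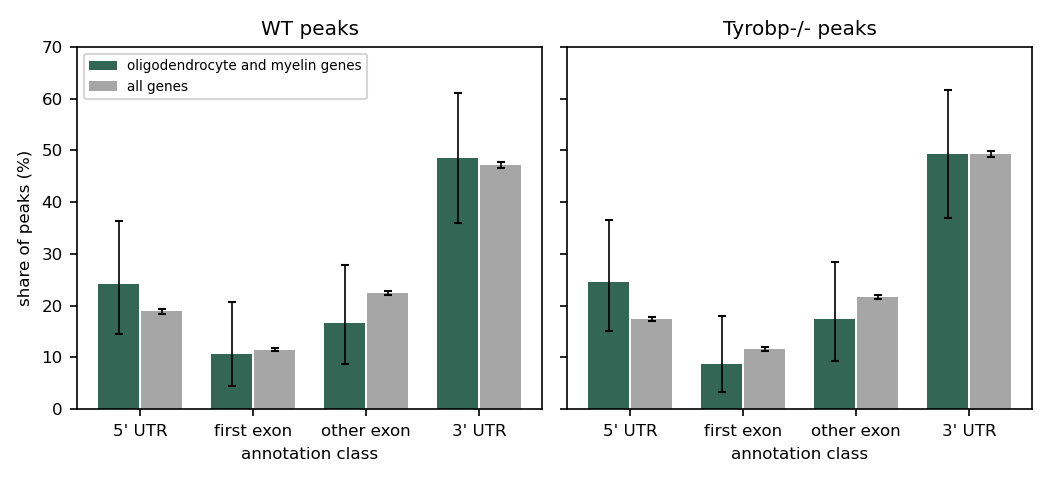
Share of m6A peaks (%) in each annotation class in WT (left) and *Tyrobp-/-* mice (right), for the members (green) and for all genes (grey), with exact 95% binomial intervals as error bars. In both genotypes 3′ UTRs hold the most peaks (48.5% and 49.3% of the members' peaks), and the members' intervals hold the share of all genes in each class.

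The peaks without a partner were few, and their median enrichment was below that of all peaks. The 7 WT peaks lay in *Enpp2*, *Mobp*, *Nkx2-2*, *Opalin*, *Qk*, *Sox10* and *Trf*, with fold enrichments from 1.11 to 18.6 and a median of 2.75. The 13 *Tyrobp-/-* peaks lay in 10 members, from 1.34 to 10.7 with a median of 3.62. Some of these have values that recur in the list, such as a fold enrichment of 6.67 with a p-value of 0.041, which 911 *Tyrobp-/-* peaks share, *Myrf*, *Nfasc* and *Pdgfra* among them. Values shared by 50 or more peaks made up 2 of the 7 and 5 of the 13, and they carry little information on a single gene.

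The deposited table that sets the genotypes side by side lists 16 peaks of 13 members. That is 40.6% of the 32 members with a peak (exact 95% interval 23.7% to 59.4%), where 26.1% of all genes with a peak have a row. The 13 are *Car2*, *Cldn11*, *Cnp*, *Cspg4*, *Enpp2*, *Enpp6*, *Gjc3*, *Mal*, *Mobp*, *Nkx2-2*, *Sirt2*, *Tmem88b* and *Ugt8a*. What decided whether a peak was listed there is not given in the sources used here. Of the 53 matched peaks, 10 overlapped a row, and *Mag*, *Olig2* and *Lpar1* had none. Of these 10, 4 were higher in *Tyrobp-/-* mice and the rest lower, while 37 of the 53 were higher. The share of all matched peaks that overlap a row is not given.

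A further 25 genes of myelin and the lineage that are not members were read in the same way. Of these, 21 had peaks in both genotypes, and 43 of 68 matched peaks (63.2%) were higher in *Tyrobp-/-* mice, with a median log2 ratio of 0.13, 11 at least 1.5 fold higher and 7 at least 1.5 fold lower. Over all matched peaks 53.6% were higher. The 11 are 16.2% of the 68, the same share as over all matched peaks, and the 7 are 10.3%, where 13.4% of all were. *Fgfr2*, a growth factor receptor, held 51 of the 100 WT peaks of this list, and without it 25 of 36 matched peaks (69.4%) were higher, with a median of 0.13. Among the strongest in WT were *Fgfr2* at 22.9 in WT and 24.9 in *Tyrobp-/-* mice, *Sox8*, a relative of *Sox10*, at 19.5 and 13.0, and *S1pr5*, a sphingosine phosphate receptor, at 17.7 and 17.2.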

How the data were processed

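Reads were trimmed and filtered by the authors with fastp, and per library the authors deposited read counts before and after this step and the percent of valid, Q20, Q30 and G or C bases. They mapped reads with HISAT2 to the mouse genome (Ensembl v96, GRCm38), called peaks with exomePeak on the 3 IP and 3 input libraries of a genotype together and annotated them. For each peak the authors deposited the fold enrichment (a ratio of IP over input), its p-value and the log10 of its FDR, treated here as a score. The comparison table also holds the authors' log2 fold changes, p-values and FDR between genotypes, which were not used; only gene names and positions of its rows were.

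Peaks were assigned by the deposited gene name. Peaks of the same gene whose spans overlapped by at least 1 base were partners, and reciprocal best overlaps were matched pairs. Pooled calls allow no test between genotypes. Intervals are exact (Clopper-Pearson, 95%) and cover counting error only. The depth behind a single peak is unknown. Members named are all those with a peak, by strongest peak, pairs past 1.5 fold, peaks in 1 genotype, and most or widest peaks, and for other lists up to 4 of the strongest in WT, with some items not reported here. The members and gene lists were chosen with earlier results of these data known. Sequences are from RefSeq (GRCm38.p6), matched by symbol. The matching of peaks and the ratios at matched peaks were first tested on simulated peaks, and the other steps were not. Python 3.11.15, pandas 2.3.3, scipy 1.17.1, numpy 2.4.6 and matplotlib 3.10.9 were used.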

Additional observations from a re-analysis of the deposited data

How the results depend on the processing

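Members with a peak stayed between 24 and 30 of 38 in WT and between 25 and 30 in *Tyrobp-/-* mice under a peak-calling FDR below 1e-05, a fold enrichment of at least 4, and the other settings tried. Requiring a reciprocal overlap of 50% lowered the share of members' peaks found in both genotypes to 66.7% of WT and 63.8% of *Tyrobp-/-* peaks. The share of all peaks is not given at this overlap, and the shares of all peaks above are for an overlap of 1 base. Matched pairs fell from 53 to 44 for the members and from 23142 to 17890 over all genes. The median log2 ratio of matched peaks was above 0 under all 9 alternatives, at 0.18 with the strongest peak of each gene, 0.22 with the 50% overlap, 0.11 after centring on all pairs, 0.15 at an FDR below 1e-05, 0.15 without recurring low-count values and 0.14 without *Mag* and *Sirt2*, and it was 0.16 without peaks annotated to another gene. The median over all matched peaks or genes was also above 0, between 0.048 and 0.057, apart from 0 after centring. With the strongest peak of each gene and no recurring low-count values the members' median was 0.087. There 6 genes (21.4%) were at least 1.5 fold higher and 2 (7.14%) lower, where 17.7% and 13.7% of all genes were. Also without peaks annotated to another gene it was 0.11, with 6 (22.2%) higher and 1 (3.7%) lower, against 17.6% and 13.3%. At least 2 fold, 3 matched peaks were higher (in *Mag*, *Bcas1* and *Mbp*) and 2 lower (in *Nkx2-2*). No share over all matched peaks is given at this mark, so these counts are not read as a result about the members. The 4 peaks lower by 1.5 fold became 0 with the strongest peak of each gene, 2 with the 50% overlap and 2 at an FDR below 1e-05. Over all genes or matched peaks, 15%, 11.3% and 9.37% were lower by that mark in these settings. With the strongest peak of each gene, 63.3% of WT peaks lay in 3′ UTRs. The settings for low-count values, *Mag* and *Sirt2*, other gene models and *Fgfr2* were chosen after seeing the data.

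No paired analysis was possible because the peaks were called on pooled replicates and carry no replicate number, so leaving out a replicate was not possible either. The spread between mice is not in these values, so a difference at a single peak has no error.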

Other observations

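Myelin is rich in cholesterol and long-chain sphingolipids, and 19 genes of their synthesis were read in the same lists. Peaks were found in both genotypes for 14 of the 19, in *Tyrobp-/-* mice only for *Cers2* and *Elovl7*, and in neither for *Idi1*, *Ugcg* and *Scd2*. Of 20 matched peaks, 17 (85%) had a higher fold enrichment in *Tyrobp-/-* mice, where 53.6% of all matched peaks did. Their median log2 ratio was 0.19 (a fold of 1.14), against 0.05 over all matched peaks. But 1 (5%) was at least 1.5 fold higher and 0 at least 1.5 fold lower, where 16.2% and 13.4% of all were. The strongest peaks in WT mice were in *Fads2*, a fatty acid desaturase, at 77.2 in WT and 91.1 in *Tyrobp-/-* mice, *Elovl1*, which lengthens fatty acids for sphingolipids, at 17.6 and 19.1, *Fdft1*, the squalene synthase, at 10 and 14.3, and *Dhcr7*, the last enzyme of cholesterol synthesis, at 7.30 and 7.37. These genes are expressed in other brain cells too, the values are single pooled ones, and no difference was tested.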
